A study of Mus musculus with 45 samples.

Results

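The clustered protocadherin locus was taken as the mm9 window of chromosome 18 from 37050000 to 38020000, and every H3K9ac domain overlapping it was kept, which gave 65 of the 44165 domains of the common set. Acetylation of histone H3 at lysine 9 (H3K9ac) marks active promoters and enhancers, and it was measured by ChIP-seq in mouse hippocampus. The tau series compared mice carrying human tau with the P301S mutation (genotype Tau, MAPT P301S) with wild type (wt) mice. At 6 months these were females (2 Tau and 3 wild type libraries) and at 11 months males (3 and 3), so that age and sex changed together. The second series compared female double-transgenic CK-p25 mice, in which the Cdk5 activator p25 can be induced in forebrain neurons, with control littermates labelled CK; the promoters driving the transgenes are not given in the labels. Tissue was taken 2 weeks after p25 induction, at 3.5 months of age, or 6 weeks after it, at 4.5 months, with 3 libraries in each of the 4 groups. The 2 series used different lots of 1 antibody and were therefore fitted apart. Whether the numbered replicates of a group came from different animals is not stated in the labels, so p-values measure the spread between these libraries, which may be technical.

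Clustered protocadherins are cell-surface adhesion proteins of neurons that give single cells different surface identities and act in dendrite self-avoidance and synapse formation. In the alpha (Pcdha) and gamma (Pcdhg) clusters, each variable exon has its own promoter and is spliced to constant exons that its cluster shares. Genes of the beta cluster (Pcdhb) consist of a single exon each. Each neuron uses only some of these promoters, and the choice depends on CTCF, cohesin and distant enhancers.

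In the RefSeq gene table used here, which is on GRCm38, the order along the chromosome is 14 Pcdha genes (Pcdha1 to Pcdhac2), 22 Pcdhb genes, then Slc25a2 and Taf7, then 22 Pcdhg entries (Pcdhga1 to Pcdhgc5), with Diaph1 beyond them. That build differs from the build of the domains, so no domain was assigned to a gene, exon or promoter, and domains are named by their mm9 position. For the same reason the defining markers of hippocampal cell types could not be looked up. Below, a domain is called by the distance of its midpoint from the start of the window, so the +931 kb domain lies 931 kb into it. Variable exons resemble each other in sequence. The sources used here do not give how reads matching several of them were treated, so levels of domains over such exons are uncertain.

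Libraries of the tau series held 4097974 to 6181925 reads in domains, and those of the CK-p25 series 996369 to 4133003. The locus held 2644 to 4256 and 733 to 2997 of them. The 2 shallowest libraries were replicate 3 of CK and replicate 3 of CK-p25, both at 6 weeks. Levels are given in CPM, the reads of a domain per 1000000 reads in all domains of the library, after TMM scaling within each series. In bulk tissue, fewer cells of a type and less acetylation per cell cannot be told apart.

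H3K9ac in the locus was made of many short domains and a few broad ones. The 65 domains covered 52.72 kb, or 5.43% of the window. Their median width was 526 bp (quartiles 370 and 847 bp), against 776 bp over all domains and 950 and 1202 bp in the 1 Mb before and after the window, which held 55 and 58 domains. In all, 51 members (78.5%) were narrower than 1000 bp, against 58.2% of all domains. The median level per kb of width was 9.89 CPM, ranging from 5.8 to 27 CPM, and the medians over all domains and over both flanks were 10.6 and 10.9 CPM per kb. Acetylation per base was thus near that of other domains, while the domains themselves were short.

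Reads were concentrated near the far end of the window. The 5 domains of highest level held 44.8% of the locus reads on average (42.6% to 47.2% per library), and 10 domains held 61.6%. By 100 kb tiles of the chromosome, 44.98% of reads lay from 37.9 to 38 Mb (15 domains), 18.6% from 37.3 to 37.4 Mb (7 domains) and 13.6% from 37.8 to 37.9 Mb (13 domains). From 37.7 to 37.8 Mb there was no domain, and the longest gap, of 129509 bp, ended at the +754 kb domain. The remaining 7 tiles held 0.241% to 7.86% of the locus reads each.

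The broadest and highest member was the +931 kb domain (37979083 to 37983251, 4169 bp), with a mean of 81.7 CPM over the 23 libraries. Within 20 kb before it lay the +917 kb domain (37965334 to 37969206, 3873 bp, 78.5 CPM) and the +925 kb domain (37973809 to 37977121, 3313 bp, 49.6 CPM). Level per kb of width was highest at the +254 kb domain (37302763 to 37305423, 2661 bp), at 27.0 CPM per kb. It was followed by the +754 kb domain (37803069 to 37804423, 1355 bp), at 25.8 CPM per kb, and then by the +917 kb domain, at 20.3 CPM per kb. Between the +766 kb and +872 kb domains lay the longest unbroken run of short members. This run was picked out after its values were seen, as consecutive domains under 1000 bp with gaps under 15 kb. It held 17 domains with a median width of 511 bp and a median spacing of 5.65 kb (4.31 to 12.8 kb), at 2.03 to 12.6 CPM each. In the gene table the starts of Pcdhg genes, the cluster nearest to Diaph1, had a median spacing of 5.33 kb, and those of Pcdha and Pcdhb genes of 7.44 and 7.84 kb. No domain of the run was assigned to a gene, and the spacings were not compared by a test.

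**Figure D1:**
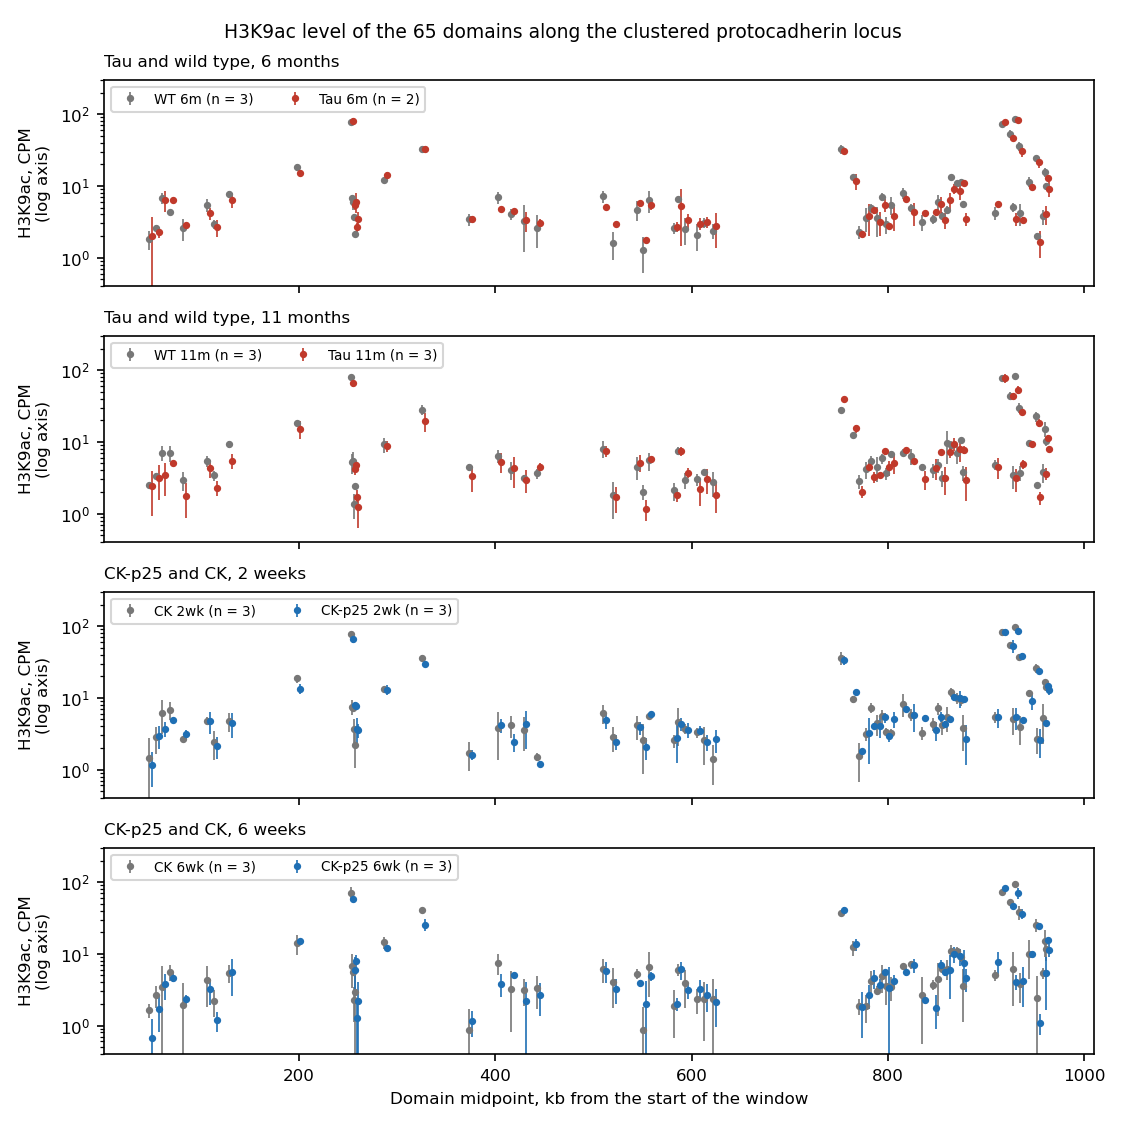
Mean H3K9ac level (CPM, log axis; bars are SD over 2 or 3 libraries) of the 65 domains against the distance of their midpoints from the start of the window, by disease model and control at each age or time. In all 8 groups the high points sit near +254 kb, at +327 kb, at +754 kb and between +917 kb and +935 kb, with a gap before +754 kb.

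Levels along the locus were similar in all groups: Spearman's rho for the mean levels of any 2 groups was 0.851 to 0.944 over the 65 domains, which are no independent replicates. Pearson's r, taken on the log2 of the mean CPM plus 0.5, was 0.925 to 0.979. Differences between groups were therefore looked for domain by domain, and over the locus as a whole.

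At 11 months the locus, summed over its domains, was lower in Tau mice. Its share of all domain reads was 0.0658%, 0.0645% and 0.0619% in the Tau libraries and 0.0680%, 0.0742% and 0.0689% in wild type libraries. All 3 Tau libraries lay below all wild type libraries. For the test, reads were summed over domains with midpoints in each 1 Mb bin, and the bin from 37 to 38 Mb held 60 domains. Its level was 616, 599 and 576 CPM in Tau mice and 630.0, 681 and 641 CPM in wild type mice, with no overlap. The log2 change was -0.12 ± 0.03 (SE), so the bin fell by 8.16%, with an edgeR adjusted p of 0.00136. Changes of bins were common in this comparison: 41.1% of 2279 bins passed, 23.3% as lower, and this bin ranked at 435 by p. Much of the summed difference lay in the +931 kb domain. It was at 58.0, 57.0 and 46.2 CPM in Tau and 84.3, 85.4 and 78.9 CPM in wild type mice. The +254 and +327 kb domains also fell and the +754 kb domain rose, as given below. The bin was not fitted without these domains.

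The neighbouring bins differed from each other. From 36 to 37 Mb the log2 change was 0.01 ± 0.02 (edgeR adjusted p = 0.739), and from 38 to 39 Mb it was -0.08 ± 0.02 (edgeR adjusted p = 0.00141). The ratio of reads in the locus to reads in both flanks was 0.226 ± 0.0049 (SD, n = 3) in Tau mice and 0.244 ± 0.0070 (n = 3) in wild type mice, also without overlap. Cross correlation, a measure of ChIP enrichment in the labels, moved with the group: it was 0.206 to 0.257 in the Tau and 0.296 to 0.342 in the wild type libraries at 11 months. With it as a covariate the log2 change of the bin was -0.12 ± 0.06 (edgeR adjusted p = 0.269). Its part in the loss was not tested.

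In the other comparisons the bin did not pass the threshold. At 6 months its level was 648 and 644 CPM in Tau and 667, 681 and 672 CPM in wild type mice, with both Tau libraries lowest. Tau mice were at a log2 change of -0.06 ± 0.03 (edgeR adjusted p = 0.997; 0.0% of bins called), and the difference of the tau effect between ages was -0.06 ± 0.04 (edgeR adjusted p = 0.330; 21.2% of bins called). At 2 weeks the levels were 665, 617 and 651 CPM in CK-p25 and 644, 701 and 707 CPM in CK mice, which overlapped (log2 -0.09 ± 0.04, edgeR adjusted p = 0.248; 3.66% of bins called). At 6 weeks they were 631, 620 and 587 CPM in CK-p25 and 645, 668 and 663 CPM in CK mice. Here all CK-p25 libraries were below all CK libraries, with a log2 change of -0.09 ± 0.04 (edgeR adjusted p = 0.163; 11.9% of bins called). Means were thus lower in the disease model in each of the 4 comparisons, and the change passed the test in 1 of them.

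**Figure D2:**
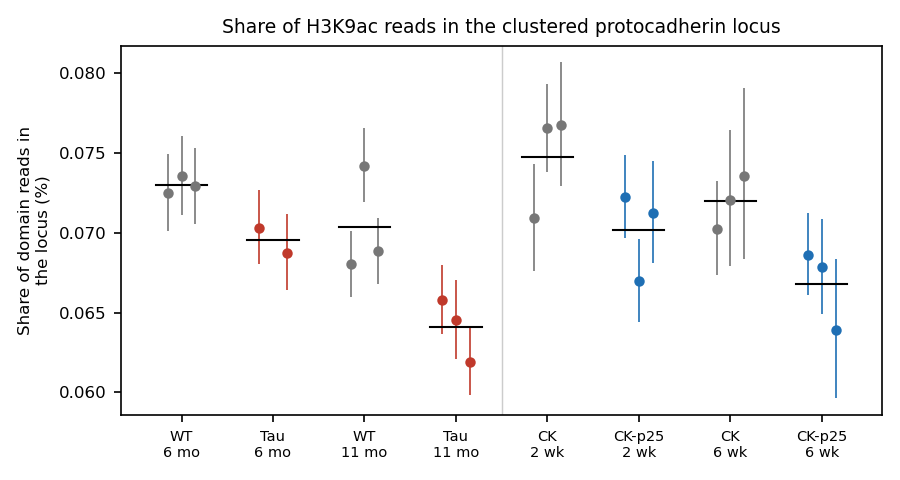
Share of a library's domain reads that lie in the 65 locus domains (percent), for each of the 23 libraries; bars are exact 95% binomial intervals, which cover counting error only, and lines are group means. The Tau libraries at 11 months lie between 0.0619% and 0.0658%, below all wild type libraries, and the CK-p25 libraries at 6 weeks lie below all CK libraries.

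Within the locus, 6 of 65 domains changed in Tau mice at 11 months: 1 rose and 5 fell. This share, 9.23%, stood beside 12% of all 44105 domains tested (4.4% higher and 7.56% lower), so calls in the locus were near the background. Without adjustment 14 members had a p under 0.05 (21.5%), against 23.7% of all domains. With library totals in place of TMM the same 1 and 5 members passed, while the split over all domains moved from 1940 higher and 3333 lower to 2705 and 2775. By width, 4 of the 14 members of 1000 bp or more and 2 of the 51 narrower ones passed, against 3837 of 18447 and 1436 of 25658 among all domains of those widths. Broader domains hold more reads, which eases detection. Calls were thus rare in the short members, as they were in short domains elsewhere.

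Signs leaned to losses. The log2 change was below 0 in 46 of 65 members (70.8%) and in 49.0% of all domains, with medians of -0.19 and 0.01. With library totals it was below 0 in 42 members (64.6%). The groups did not overlap in 14 members as lower (21.5%) and in 4 as higher (6.15%), against 13.8% and 11.2% of all domains. In the flanks, 6 of 55 domains before the window passed (1 higher, 5 lower, median log2 change -0.01) and 7 of 58 after it (1 higher, 6 lower, median -0.08). The lean was shared with the flank after the window, where 40 of 58 domains (69.0%) were below 0 and 22.4% did not overlap as lower, but less with the flank before it (52.7% and 14.5%).

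The smallest p was at the +931 kb domain, while the short +63 and +130 kb domains described below had larger log2 changes. Its level was 58.0, 57.0 and 46.2 CPM in Tau mice at 11 months and 84.3, 85.4 and 78.9 CPM in wild type mice. The Tau libraries were all far below the wild type ones. At 6 months it was 86.1 and 79.4 CPM in Tau and 82.6, 88.1 and 90.5 CPM in wild type mice, where the groups overlapped. The log2 change at 11 months was -0.63 ± 0.08 (SE; edgeR adjusted p = 9.01e-10), against -0.07 ± 0.08 at 6 months (edgeR adjusted p = 1). The tau effect itself differed between 11 and 6 months by -0.56 ± 0.11 (edgeR adjusted p = 0.000379).

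Its broad neighbours did not follow it. The +917 kb domain was at 88.3, 67.6 and 76.7 CPM in Tau and 77.1, 81.9 and 74.1 CPM in wild type mice at 11 months, with a log2 change of 0.01 ± 0.07 (edgeR adjusted p = 0.954). The +925 kb domain was at 44.0, 41.4 and 44.7 CPM against 42.8, 49.8 and 40.0 CPM, with a log2 change of -0.02 ± 0.09 (edgeR adjusted p = 0.944). In both, the groups overlapped. Within each library, the level of the +931 kb domain over that of the +917 kb domain was 0.657, 0.842 and 0.602 in Tau mice and 1.09, 1.04 and 1.06 in wild type mice at 11 months. At 6 months the same ratio was 1.08 and 1.03 in Tau and 1.23, 1.18 and 1.19 in wild type mice. The ratio to the +925 kb domain was 1.32, 1.37 and 1.03 in Tau and 1.97, 1.71 and 1.97 in wild type mice at 11 months, also lower in all Tau libraries. At 6 months this second ratio was 1.83 and 1.73 in Tau and 1.36, 1.69 and 1.91 in wild type mice, which overlapped, with the Tau mean above the wild type mean. Both pairs were chosen after their values were seen, and the difference between the domains was not tested. The +935 kb domain (37983496 to 37985746), which follows 244 bp after the +931 kb domain, had a log2 change of -0.18 ± 0.12 (edgeR adjusted p = 0.387).

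The only called gain was at the +754 kb domain, the first after the long gap. It was at 40.5, 39.0 and 39.7 CPM in Tau and 25.04, 29.2 and 29.9 CPM in wild type mice at 11 months. All Tau libraries were above all wild type ones, and they lay within 1.5 CPM of each other. Tau mice gained 0.51 ± 0.10 on the log2 scale (edgeR adjusted p = 0.000198). At 6 months it was at 29.8 and 31.3 CPM in Tau and 29.0, 38.4 and 30.7 CPM in wild type mice, which overlapped (log2 -0.10 ± 0.12, edgeR adjusted p = 1). The tau effect differed between ages by 0.60 ± 0.16 (edgeR adjusted p = 0.0137). This difference was lost in the DESeq2 Wald test (adjusted p = 0.0560). It was lost too without replicate 1 of wild type at 11 months, replicate 1 of Tau at 6 months or replicate 2 of wild type at 6 months (edgeR adjusted p = 0.0633, 0.108 and 0.133).

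The other 4 losses lay in the first 330 kb of the window, on the side of Pcdha in the gene table. The +63 kb domain (37112282 to 37112791, 510 bp) was at 1.83, 5.09 and 3.31 CPM in Tau and 8.57, 5.25 and 7.48 CPM in wild type mice. The Tau libraries were lower, by a narrow margin between the highest of them and the lowest wild type one. On the log2 scale the change was -1.12 ± 0.27 (edgeR adjusted p = 0.00221), and without replicate 1 of Tau it was -0.80 (edgeR adjusted p = 0.0633). The +130 kb domain (37179762 to 37180440, 679 bp) was at 5.29, 6.79 and 4.23 CPM in Tau and 10.4, 8.36 and 9.10 CPM in wild type mice, with no overlap. Its log2 change was -0.80 ± 0.22 (edgeR adjusted p = 0.00681). Without replicate 3 of Tau or replicate 1 of wild type the adjusted p was 0.0855 and 0.0526 (edgeR).

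The +254 kb domain was at 73.2, 67.9 and 57.0 CPM in Tau and 73.8, 85.8 and 82.1 CPM in wild type mice at 11 months. The groups nearly met, with replicate 1 of Tau just below replicate 1 of wild type. The log2 change was -0.29 ± 0.08 (edgeR adjusted p = 0.00705). It did not pass in DESeq2 (adjusted p = 0.0692), nor without replicate 3 of Tau or replicate 2 of wild type (edgeR adjusted p = 0.165 and 0.0807). The +327 kb domain (37376362 to 37378010, 1649 bp) was at 19.5, 25.5 and 13.8 CPM in Tau and 24.2, 33.3 and 27.3 CPM in wild type mice. Replicate 2 of Tau was above replicate 1 of wild type, so these groups overlapped. The log2 change was -0.55 ± 0.14 (edgeR adjusted p = 0.00513), and without replicate 3 of Tau or replicate 2 of wild type the adjusted p was 0.114 and 0.0745 (edgeR).

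The 6 calls at 11 months went to 3 without replicate 3 of Tau, while calls over all domains went from 5273 to 3452. With cross correlation, which did not overlap between these groups, as a covariate none of the 6 passed in edgeR, although each kept its direction. Over all domains, 695 of 44105 passed in that fit. The +931 kb domain then had a log2 change of -0.45 ± 0.16 (edgeR adjusted p = 0.171) and the +754 kb domain of 0.38 ± 0.22 (edgeR adjusted p = 0.545). The +63, +130, +254 and +327 kb domains were at -1.54, -0.54, -0.26 and -0.98. Standard errors were larger with the covariate, for example 0.58 against 0.27 at the +63 kb domain.

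**Figure D3:**
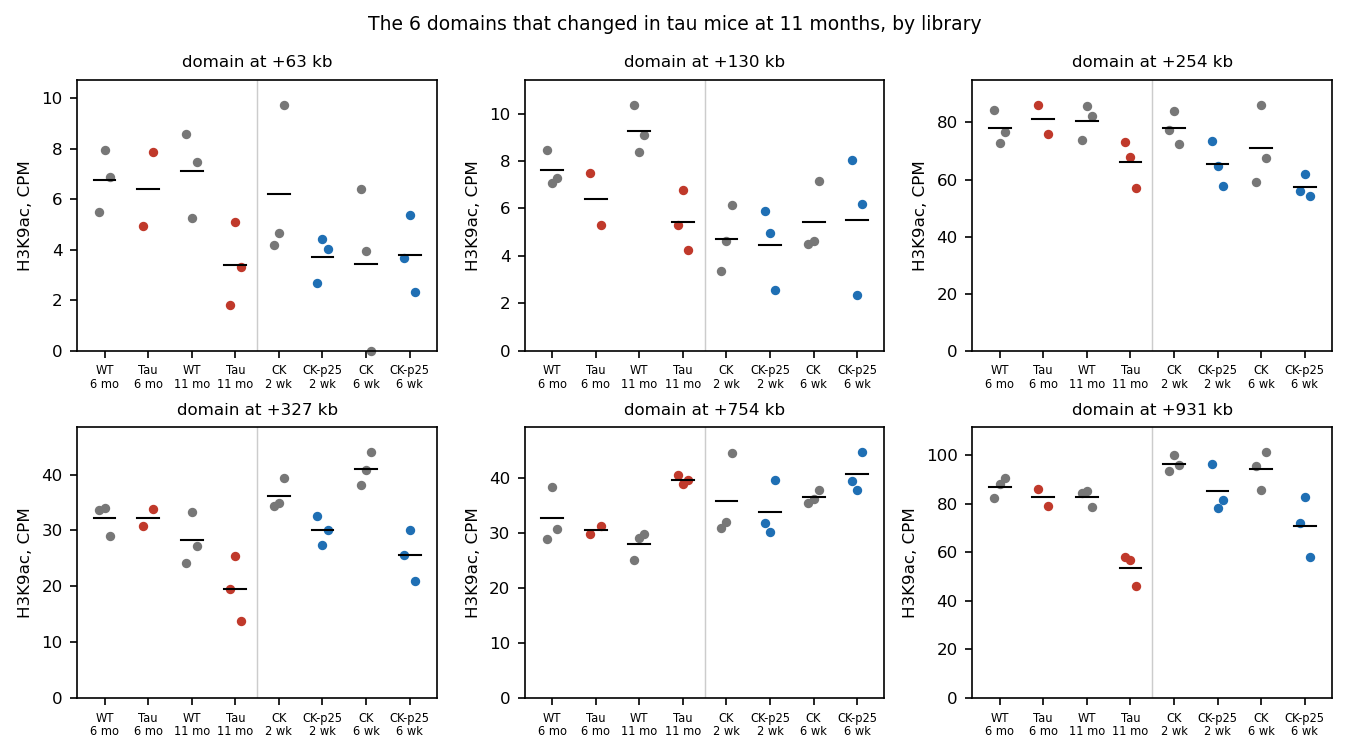
H3K9ac level (CPM, from 0) of the 6 domains that passed the test in Tau mice at 11 months, for each library of the 8 groups; lines are group means, and titles give the distance from the start of the window. At +931 kb the 3 Tau libraries at 11 months lie between 46.2 and 58.0 CPM and all other libraries of the tau series between 78.9 and 90.5 CPM.

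Changes at 11 months were also described by tile along the window. From 37.1 to 37.2 Mb all 7 domains had a log2 change below 0 (median -0.57), of which 2 passed (12% of all domains did). The summed level of the Tau libraries was below that of all wild type libraries. In this tile wild type mice were themselves higher at 11 than at 6 months, without overlap (means of 38.7 and 32.3 CPM). The Tau means were 25.4 and 31.1 CPM, and at 6 months too Tau lay below wild type without overlap. From 38 Mb to the end of the window, all 5 domains were below 0 (median -0.34) and none passed. From 37.8 to 37.9 Mb 6 of 13 domains were below 0 (median 0.07), and the summed level did not overlap as higher. Its mean was 105.7 CPM in Tau and 95.7 CPM in wild type mice. The sum includes the called +754 kb domain, at 40.5, 39.0 and 39.7 CPM against 25.04, 29.2 and 29.9 CPM. This gain is as large as that of the tile, and no sum was taken without that domain. In the run of 17 short domains within and just after that tile, 7 had a log2 change below 0 (median 0.06), none passed in edgeR and 2 had an unadjusted p under 0.05. The tiles named here were picked after their values were seen. Whether tiles differ from each other was not tested, and non-overlap was not counted in tiles elsewhere in the genome.

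At 6 months none of the 65 domains passed the test between Tau and wild type mice, as none of all 44105 did (0.0% called). DESeq2 also gave 0, and 2 members had an unadjusted p under 0.05 in edgeR, a share of 3.08% against 3.23% of all domains. Log2 changes were below 0 in 38 of 65 members (58.5%; all domains 50.6%), with a median of -0.10. In the flanks 58.2% before and 65.5% after the window were below 0. The groups did not overlap in 9 members as higher and 9 as lower (13.8% each), against 9.63% and 10.1% of all domains. The +866 kb domain (37915348 to 37916317) had the smallest p, at 8.09 and 10.2 CPM in Tau and 13.8, 13.9 and 12.3 CPM in wild type mice. Both Tau libraries were below the wild type ones, and the log2 change was -0.55 ± 0.21 (edgeR adjusted p = 1). Next were the +878 kb domain (37927487 to 37927933), at -0.70 ± 0.33, and the +935 kb domain, at -0.25 ± 0.13. The median standard error was 0.337 on the log2 scale in members under 1000 bp and 0.148 in broader ones.

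Over both ages, the tau effect differed at 2 members, the +931 kb and +754 kb domains (1 lower, 1 higher), against 4.23% of all domains (3.21% lower, 1.02% higher). Here 10 members (15.4%) had an unadjusted p under 0.05, against 14.5%. The DESeq2 Wald test called 1 of them. The number was 1 without replicate 2 of wild type at 6 months and 4 without replicate 2 of Tau at 11 months. In the same order, 998, 1280 and 2572 of all domains passed, against 1864. The +254 kb domain came next (-0.34 ± 0.12, edgeR adjusted p = 0.0813). In wild type mice alone, 2 members differed between 11 and 6 months, against 1.45% of all domains (0.959% higher, 0.487% lower). The wild type ages did not overlap in 5 members as higher (7.69%) and 4 as lower (6.15%), against 9.47% and 8.75%. The +258 kb domain (37307837 to 37308120, 284 bp) was at 0.988, 1.94 and 1.14 CPM at 11 months and 4.03, 3.86 and 3.23 CPM at 6 months, all lower in the older males (log2 -1.46 ± 0.39, edgeR adjusted p = 0.0332). The +862 kb domain (37911236 to 37911809, 574 bp) was at 8.57, 5.45 and 14.6 CPM and 5.09, 4.93 and 4.04 CPM, all higher at 11 months (log2 1.05 ± 0.26, edgeR adjusted p = 0.0233). These 2 were named after their values were seen. Neither passed in DESeq2 (adjusted p = 0.252 and 0.189). Leaving out replicate 1 of wild type at 11 months left 1 of them, and leaving out replicate 3 at 11 months or any wild type library at 6 months left 0. Over all domains the wild type ages differed at 638, at 191 in DESeq2 and at 362 and 462 without those 11-month libraries. Without 1 of the 6-month wild type libraries the number was 291 to 303.

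**Figure D4:**
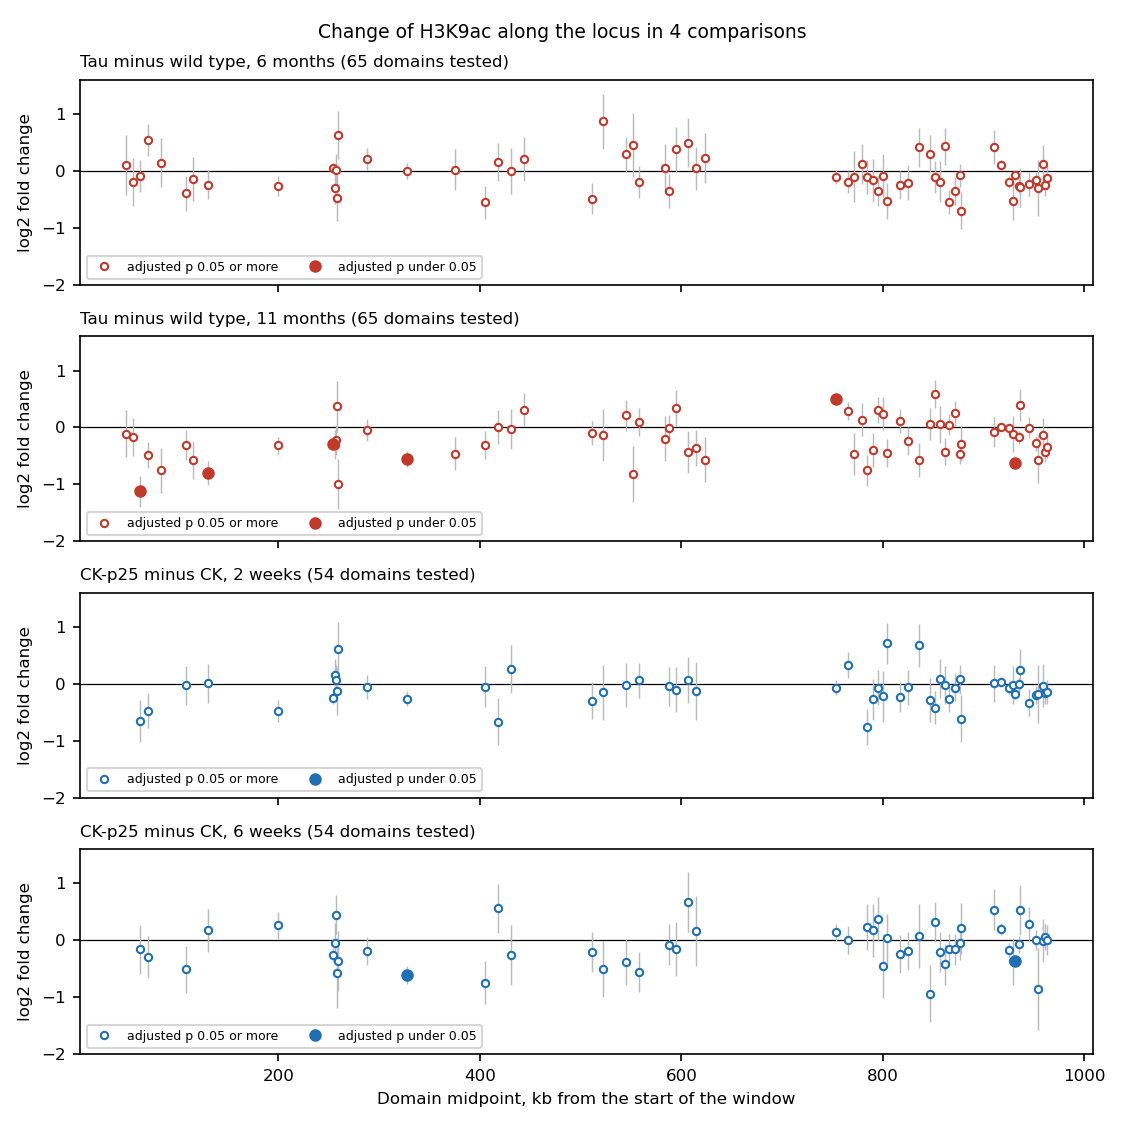
Log2 change of H3K9ac (points; bars are SE) of the locus domains in 4 comparisons, against the distance from the start of the window; filled points have an edgeR adjusted p under 0.05. Filled points are found at 11 months (6, of which 1 lies above 0) and in CK-p25 mice at 6 weeks (2, both below 0).

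In the CK-p25 series 54 of the 65 members held enough reads to be tested. The 11 others were 106 to 423 bp wide and at 1.69 to 3.35 CPM on average, spread from +49 kb to +779 kb. At 2 weeks 0 of 54 passed in edgeR and 0 in DESeq2, against 2.12% of all 38193 domains (1.51% higher, 0.613% lower), and 3 had an unadjusted p under 0.05 (5.56%, against 10.6%). The groups did not overlap in 3 members as higher (5.56%) and 4 as lower (7.41%), against 8.25% and 7.46%. The +254 kb domain had the smallest p. It was at 73.6, 64.9 and 57.7 CPM in CK-p25 and 77.5, 83.9 and 72.3 CPM in CK mice, which overlapped (log2 -0.25 ± 0.10, edgeR adjusted p = 0.235). The +200 kb domain (37249316 to 37250507) was at 15.7, 12.5 and 12.1 CPM against 19.7, 20.4 and 15.9 CPM, lower without overlap (log2 -0.48 ± 0.19, edgeR adjusted p = 0.259). The +784 kb domain (37834001 to 37834511) was also lower without overlap, at 4.40, 4.17 and 3.67 CPM against 7.54, 5.94 and 8.21 CPM (log2 -0.76 ± 0.32, edgeR adjusted p = 0.301).

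At 6 weeks 2 of 54 members fell in CK-p25 mice (3.70%) and none rose, against 2.65% of all domains (1.33% lower, 1.32% higher). The groups did not overlap in 5 members as lower (9.26%) and 2 as higher (3.70%), against 8.46% and 8.81%. An unadjusted p under 0.05 was found in 4 members (7.41%), against 12.5%. Both called members had also fallen in Tau mice at 11 months, a comparison with no library in common. Over the 54 members, however, the log2 changes of these 2 comparisons were nearly unrelated in rank (Spearman's rho 0.033, against 0.379 over 38167 domains, which are not independent replicates). The +327 kb domain was at 25.6, 30.1 and 20.9 CPM in CK-p25 and 38.1, 40.8 and 44.1 CPM in CK mice, with no overlap. This gave a log2 change of -0.60 ± 0.16 (edgeR adjusted p = 0.0130). At 2 weeks it had been at 32.5, 27.4 and 30.1 CPM against 34.4, 34.9 and 39.5 CPM, also without overlap, and did not pass (log2 -0.26 ± 0.14, edgeR adjusted p = 0.521).

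The +931 kb domain was at 72.2, 82.7 and 58.0 CPM in CK-p25 and 95.7, 85.6 and 101.5 CPM in CK mice at 6 weeks. All CK-p25 libraries were below all CK libraries, with a small gap between them. This gave a log2 change of -0.36 ± 0.11 (edgeR adjusted p = 0.0384). At 2 weeks it was at 96.6, 78.2 and 81.5 CPM against 93.5, 100.4 and 95.9 CPM, which overlapped (log2 -0.18 ± 0.09, edgeR adjusted p = 0.497). Its ratio to the +917 kb domain at 6 weeks was 0.827, 1.02 and 0.708 in CK-p25 and 1.25, 1.24 and 1.39 in CK mice, without overlap. Its ratio to the nearer +925 kb domain was 1.41, 1.78 and 1.39 in CK-p25 and 1.77, 1.49 and 2.06 in CK mice, which overlapped. The +917 kb domain itself was higher on average in CK-p25 mice, with a log2 change of 0.19 ± 0.10 (edgeR adjusted p = 0.448). The +254 kb domain was again lower on average, at 55.8, 62.0 and 54.1 CPM against 59.2, 86.2 and 67.7 CPM, and the groups overlapped (log2 -0.26 ± 0.12, edgeR adjusted p = 0.327).

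Both calls at 6 weeks were lost without single libraries. Cross correlation overlapped between these groups (0.0738 to 0.177 in CK-p25, 0.0640 to 0.137 in CK mice), and with it as a covariate both passed. Without both of the shallow libraries, an alternative chosen after seeing the data, neither passed: the +327 kb domain was then at -0.50 ± 0.17 (edgeR adjusted p = 0.153) and the +931 kb domain at -0.26 ± 0.11 (edgeR adjusted p = 0.391). Calls over all domains went from 1011 of 38193 to 400 of 40304. The number of calls was 0 without replicate 3 of CK or replicate 1 or 3 of CK-p25, and 1 without replicate 1 or 2 of CK. Over all domains those fits gave 642, 478, 698, 737 and 540 calls, in the same order. For the +327 kb domain the adjusted p was 0.0626 without replicate 2 of CK, 0.0525 without replicate 3 of CK, 0.116 without replicate 1 of CK-p25 and 0.0561 without its replicate 3 (edgeR). For the +931 kb domain it was 0.249 without replicate 1 of CK, 0.129 without its replicate 3, 0.189 without replicate 1 of CK-p25 and 0.198 without its replicate 3 (edgeR). The +931 kb call was lost in DESeq2 as well (adjusted p = 0.133) and with library totals (edgeR adjusted p = 0.0555).

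Between 2 and 6 weeks the p25 effect differed at none of the 54 members in edgeR or DESeq2, against 0.00524% of all domains, and 2 had an unadjusted p under 0.05 (3.70%, against 4.76%). The 3 of smallest p were the +200 kb domain (0.75 ± 0.31), the +417 kb domain (37467148 to 37467673, 1.23 ± 0.60) and the +784 kb domain (0.99 ± 0.51), with edgeR adjusted p of 0.993, 0.998 and 0.998. In CK mice alone, 0 members differed between 6 and 2 weeks in edgeR and in DESeq2 (0.00262% of all domains), and 3 had an unadjusted p under 0.05 (5.56%, against 5.51%). These groups did not overlap in 1 member as higher and 2 as lower (1.85% and 3.70%), against 5.0% and 5.68%. In this CK comparison the +200 kb domain had a log2 change of -0.60 ± 0.23 (edgeR adjusted p = 0.816), and the groups overlapped. At the +784 kb domain it was -0.76 ± 0.37 (edgeR adjusted p = 0.897), without overlap. There the groups all but met, at 5.923 CPM (9 reads) in replicate 2 at 6 weeks and 5.938 CPM (23 reads) in replicate 2 at 2 weeks.

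Log2 changes of the members were below 0 in 39 of 54 at 2 weeks (72.2%, all domains 50.7%) and in 33 of 54 at 6 weeks (61.1%, all domains 50.3%), with medians of -0.07 and -0.11. In the flanks before and after the window these shares were 64.4% and 61.1% at 2 weeks and 42.2% and 50% at 6 weeks. The locus shares moved between fits, as did the number of members tested. At 2 weeks the lowest was 30 of 56 (53.6%), without replicate 2 of CK-p25 at 2 weeks. The highest was 45 of 60, without replicate 1 of CK at 2 weeks. At 6 weeks the lowest was 21 of 39 (53.8%), with only the compared groups. The highest was 35 of 56 (62.5%), without replicate 2 of CK-p25 at 2 weeks. Over the 4 comparisons of disease model and control, which share no library, 12 of the 54 members tested in all of them were below 0 in each (22.2%), against 10.9% of 38167 domains. They included the +925, +929, +931 and +935 kb domains, which follow each other along the chromosome and were named here after their values were seen. Of these 4, the +929 kb domain (37978352 to 37978882, 531 bp, 4.52 CPM) lies 200 bp before the +931 kb domain, with log2 changes of -0.12 at 11 months, -0.53 at 6 months, -0.02 at 2 weeks and -0.37 at 6 weeks. The +935 kb domain was at -0.18, -0.25, -0.01 and -0.07 in the same order, and the +925 kb domain at -0.02, -0.20, -0.07 and -0.18. Among these domains the +931 kb domain alone passed a test, at 11 months and at 6 weeks. The tile from 37.3 to 37.4 Mb, which holds the +254 kb and +327 kb domains, had a summed level below that of all controls at 11 months, 2 weeks and 6 weeks, with log2 ratios of the means of -0.32, -0.18 and -0.36. At 6 months this ratio was 0.04 and the groups overlapped. This tile was picked after its values were seen, and tiles elsewhere in the genome were not examined. These counts describe the locus and carry no test.

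Among the other 1 Mb bins of the autosomes, some had a pattern of similar shape over the 8 group means, centred within each series. Pearson's r with the locus bin was highest, of 2161 bins, at 8 to 9 Mb on chromosome 3 (0.992), at 21 to 22 Mb on chromosome 15 (0.979), at 51 to 52 Mb on chromosome 7 (0.978), at 33 to 34 Mb on chromosome 10 (0.972) and at 45 to 46 Mb on chromosome 6 (0.971). Over the 23 libraries r was 0.812, 0.785, 0.800, 0.693 and 0.744. Each pair of points shares its library and its scaling, and these bins were picked as the closest of many. In the same order they held 14, 3, 64, 11 and 3 domains, against 60 in the locus bin. Pearson's r takes no account of the size of changes, and the locus bin was at -0.12 ± 0.03 at 11 months. At 11 months the log2 change of the bin on chromosome 3 was -0.14 ± 0.04 and on chromosome 15 -0.67 ± 0.12, both lower in Tau mice (edgeR adjusted p = 0.00798 and 7.8e-05).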

How the data were processed

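The authors deposited raw read counts per domain, not normalized, for 23 H3K9ac libraries in 8 groups over 44165 common domains with mm9 positions. The score column deposited beside those positions is 0 throughout and was not used. The 22 libraries of input DNA were used by the authors in finding domains, per the series' design text, and have no count column. BWA, Picard and MACS2 are named in the submitters' processing notes, without their roles. Reads were single-end. The binomial intervals model the sampling of reads within 1 library, so they cover counting error only. All domains were fitted together in edgeR 4.0.16 (R 4.3.3): quasi-likelihood F test, TMM, filterByExpr, 1 mean per group and Benjamini-Hochberg adjustment across every domain tested (threshold 0.05). The same was done for sums over 1 Mb bins. Standard errors are the log2 change divided by the root of F. No score over members was tested.

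Members and lists were chosen with earlier results of these data known. Named are the 5 domains of highest CPM, the widest, the 3 of highest CPM per kb (500 bp or more), and up to 10 called per comparison (the 3 of smallest p where fewer than 3 passed). Alternatives were DESeq2 1.42.0 (Wald test, size factors), library totals, no filter, a cross-correlation covariate, a replicate block, only the compared groups, only domains wholly inside the window (all members were), the locus as 1 feature, an autosomal denominator and each library left out. The fits were tested on simulated data. Replicate pairs differed by more than sampling noise (chi-square per degree of freedom 1.1 to 1.88), and 0 count columns lacked a sample.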

Additional observations from a re-analysis of the deposited data

Results flagged for a closer look

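At 2 domains of the locus the tau effect differed between 11 and 6 months when the difference was tested in edgeR. At the +931 kb domain, where Tau mice were lower at 11 months, the difference was -0.5551 on the log2 scale (log2 changes of -0.63 and -0.07). At the +754 kb domain, where they were higher, it was 0.6047 (0.51 and -0.10). The 11-month mice were males and the 6-month mice females, so age and sex cannot be told apart. With cross correlation as a covariate neither difference passed in edgeR (adjusted p = 0.443 at +931 kb and 0.530 at +754 kb). Over all 44105 domains that fit called 412 such differences, against 1864 without the covariate. The difference at +931 kb passed with each library left out in turn, and that at +754 kb did so in 8 of 11 such fits and did not pass in the DESeq2 Wald test (adjusted p = 0.0560).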

How the results depend on the processing

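Counts below are locus domains past the threshold unless given over all domains. With cross correlation as a covariate 0 passed at 11 months, for the difference of the tau effect and between wild type ages, and the 1 Mb bin was at -0.1219 at 11 months (edgeR adjusted p = 0.269). Over all domains 695, 412 and 69 passed there, against 5273, 1864 and 638 without the covariate. The DESeq2 Wald test gave 1 for the difference of the tau effect, 0 between wild type ages and 1 in CK-p25 mice at 6 weeks, and library totals gave 1 there. Over all domains the Wald test gave 998, 191 and 454, and library totals gave 980 at 6 weeks. Without both shallow libraries the count at 6 weeks was 0 (400 over all domains). The bin's difference of the p25 effect then turned from -0.006071 to 0.02195. With the locus as 1 feature it was 0.005589. The causes were not tested. Leaving out single libraries gave 3 to 8 domains at 11 months, 1 to 4 for the difference of the tau effect, 0 to 2 between wild type ages and 0 to 2 at 6 weeks. Over all domains the number was 3452 to 5894 at 11 months and 478 to 1081 at 6 weeks. The bin then ranged from -0.1483 to -0.09028 at 11 months, and its difference of the p25 effect from -0.03825 to 0.03332. Relative to autosomal reads, the mean locus share was 0.07076% in Tau and 0.07428% in wild type mice at 6 months. The replicate block left 6, 0 and 2 calls in the tau series (11 months, 6 months, difference) and 0, 2 and 0 in the CK-p25 series (2 weeks, 6 weeks, difference), and it changed no call. Nothing says that numbers pair libraries. Same-numbered libraries had deviations correlated at -0.0151 to 0.0769, and differently numbered ones at -0.0688 to 0.0698. In the tau series at 11 months the same-numbered pairs were at 0.0199, 0.065 and 0.0557, and the others at -0.0559 to 0.000686. For ages within wild type and times within CK the block could not be fitted. The median member held 5 to 32 reads per library, which limits what could be seen in short domains.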
